A study of Mus musculus with 4 samples.

Results

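The potassium channel genes of the mouse otic vesicle were taken as all protein-coding genes whose symbol begins with Kcn. There were 94 of them among the 34866 genes of the deposited table, and all 94 Kcn coding genes of the annotation were found in it. They fall into 21 subfamilies by symbol, and into 6 roles: pore subunits gated by voltage, pore subunits gated by calcium or sodium, inward rectifiers, channels with a pair of pore domains (Kcnk), electrically silent subunits, and accessory or regulatory subunits. Roles were set by subfamily and not by the gating of each member, and Kcnu1 was counted with the calcium or sodium group. The genes enter by name alone, not by any measured value, though earlier results of these data were known when the list was chosen.

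RNA was sequenced from otic vesicles, the epithelial sacs that give rise to the inner ear, of C57/BL6 embryos at embryonic day 11.5. Wild-type embryos gave 2 libraries, called WT 1 and WT 2, and Meis2 mutants gave 2 more, called KO 1 and KO 2. Meis2 encodes a homeodomain transcription factor; the allele, the tissue in which it is lost and the number of embryos per library are not given in these sources. Nothing says that the libraries are separate litters or animals, so p-values here measure only how far these libraries spread, and some of that may be technical.

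Potassium channels let potassium ions leave or enter a cell along their electrochemical gradient, and so set the resting potential and end action potentials. Pore-forming subunits make the channel, and accessory subunits change its gating, its trafficking or its sensitivity to calcium. In the mature inner ear, potassium secreted into the endolymph drives the current through hair cells, and Kcnq1 with Kcne1, Kcnj10 with Kcnj16, and Kcnma1 are known for parts of that circuit. At the otic vesicle stage there is no mature hair cell or stria vascularis.

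Levels are given in TPM (a library's transcripts scaled to a fixed total, after division by transcript length, so that genes can be compared with each other). Each library sums to 1000000 TPM and between 20829 and 21685 genes were above 0, but TPM keeps no read depth, so no counting interval can be given. The test was limited to genes averaging 1 TPM or more across libraries, which left 37 of the 94 Kcn genes (39.4%) and 62.0% of all coding genes in the table. Meis2 itself had 79.0 and 88.7 TPM in WT libraries against 73.2 and 76.6 TPM in KO libraries, which does not check the labels, since the deleted part is not given and a gene-level value may lie outside it. All 9 markers fixed for otic epithelium were above the filter, with sums of 1649 and 1496 TPM in WT against 1239 and 1329 TPM in KO, which did not overlap. The 9 mesenchyme markers summed to 937 and 765 TPM in WT against 1345 and 866 TPM in KO, which overlapped. Endothelial markers summed to between 119 and 149 TPM, pericyte markers to between 85.8 and 101 TPM, and glial and crest markers to between 92.4 and 102 TPM over the 4 libraries. None of these marker genes was listed at 0. Transcripts of other cell types were thus present beside those of epithelium, and fewer cells of a type cannot be told apart from less RNA per cell. The part of these cell types in the Kcn results was not tested. Neuronal and mesenchyme markers are only set beside the Kcn genes below.

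Potassium channel transcripts were scarce in the otic vesicle, and those of accessory subunits were the largest share. The median of the 94 genes was 0.523 TPM, against 4.93 TPM over all coding genes. Only Kcnmb4, Kcnk1 and Kcne3 had a mean of at least 10 TPM, 10 genes had at least 5 TPM, and 20 were under 0.1 TPM. Summed over all 94 genes, the level came to 180 TPM in WT 1 and 189 in WT 2, against 166 in KO 1 and 213 in KO 2. The KO libraries lay on either side of both WT libraries.

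The 17 accessory genes summed to 71.8 ± 0.280 TPM in WT against 73.1 ± 15.3 TPM in KO (SD, n = 2 each), and made up 38.9% of the Kcn total in WT. The 30 voltage-gated pore genes followed at 46.3 ± 6.15 TPM in WT against 47.7 ± 9.03 TPM in KO (SD, n = 2 each), or 25.1% of the WT total. The 14 Kcnk genes stood at 36.6 ± 0.572 and 38.0 ± 3.15 TPM (SD, n = 2 each), 19.8% of the WT total. Calcium- or sodium-activated pores and inward rectifiers were lower, at 14.2 ± 0.513 and 14.1 ± 0.570 TPM in WT against 13.2 ± 3.19 and 15.7 ± 1.92 TPM in KO (SD, n = 2 each). The 10 electrically silent genes together reached 1.61 ± 0.279 TPM in WT against 1.75 ± 0.319 TPM in KO (SD, n = 2 each). In 4 of the 6 roles the KO libraries lay on both sides of the WT libraries, and for inward rectifiers and silent subunits the ranges overlapped.

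**Figure D1:**
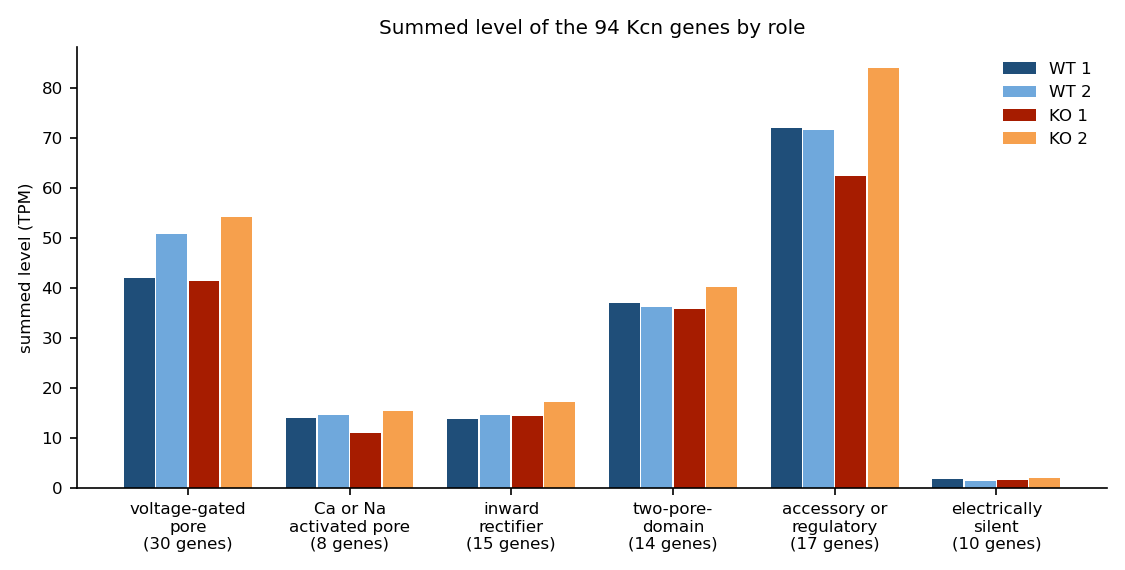
Summed level in TPM of the Kcn genes of each role, with 1 bar per library (WT 1, WT 2, KO 1, KO 2) and the number of genes under each group. Accessory genes are the tallest group in all 4 libraries, at 62.3 to 84.0 TPM, and KO 2 has the tallest bar in each group.

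Among accessory subunits, Kcnmb4 (ENSMUSG00000054934.10, chromosome 10, 116417861 to 116473878, GRCm38) was the most abundant Kcn gene. It encodes the beta 4 subunit of the large-conductance calcium-activated (BK) channel. Kcnmb4 measured 24.9 TPM in WT 1 and 25.9 in WT 2, against 24.4 in KO 1 and 26.0 in KO 2, and the highest library was 1.06 times the lowest, the narrowest range of the 37 tested genes. Its exons share 355 and 693 bases with the antisense genes Kcnmb4os1 and Kcnmb4os2 on the opposite strand, which the table does not list as rows, and whether the counting used strand is not given in these sources. Of the 37 tested Kcn genes, 15 share exon bases with a gene on the opposite strand, and without strand the reads of such pairs cannot be told apart. Kcnmb2, the beta 2 subunit of the same channel, which makes it inactivate, behaved differently. It measured 7.19 TPM in WT 1 and 10.1 in WT 2, against 4.24 in KO 1 and 17.7 in KO 2, so that the KO libraries were the lowest and the highest. Its remaining relatives Kcnmb1 and Kcnmb3 were at no more than 0.114 TPM in any library.

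Kcne3 (ENSMUSG00000035165.14, chromosome 7, 100176502 to 100184869), a small single-span subunit known to hold Kcnq1 channels open, was next among accessory genes by mean level. It measured 18.4 TPM in WT 1 and 11.5 in WT 2, against 10.4 in KO 1 and 11.3 in KO 2. WT 1 stood well above the other 3 libraries, which lay close together. The log2 difference of KO minus WT was -0.39 (SE 0.24) and it was -0.07 without WT 1 and -0.71 without WT 2. Kcne1l, another member of that family on the X chromosome, was at 5.06 and 7.32 TPM in WT against 6.57 and 8.74 TPM in KO, and the genotypes overlapped.

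The beta subunits of Kv1 channels were all above the filter. Kcnab2 was at 7.90 ± 0.835 TPM in WT against 8.46 ± 2.20 TPM in KO, and Kcnab1 at 2.88 ± 0.0639 and 2.37 ± 0.167 TPM (SD, n = 2 each). For Kcnab1 both KO libraries lay below both WT libraries, with a log2 difference of -0.20 (SE 0.18). Kcnip4, which encodes a calcium-binding partner of Kv4 channels, had the largest difference of the tested Kcn genes on the log2(TPM + 1) scale, at 0.50 (SE 0.23). With a pseudocount of 5 TPM it was 0.19, smaller in size than that of Kcne3 (-0.31). It measured 1.13 TPM in WT 1 and 1.00 in WT 2, against 1.73 in KO 1 and 2.14 in KO 2, so both KO libraries were higher. Its exons share 168 bases with the coding gene 5730480H06Rik on the opposite strand. The related genes Kcnip1, at 0.468 and 0.365 TPM in WT against 0.717 and 0.771 TPM in KO, and Kcnip2, at 0.192 and 0.212 TPM in WT against 0.370 and 0.453 TPM in KO, lay under the filter; they were named after their values were seen. Kcnip3 overlapped between genotypes.

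Voltage-gated pore subunits were led by Kcna6 and Kcnh2. Kcna6 (ENSMUSG00000038077.7, chromosome 6, 126708329 to 126740674), a delayed-rectifier subunit of the Kv1 family, measured 8.99 TPM in WT 1 and 8.08 in WT 2, against 10.9 in KO 1 and 10.6 in KO 2. Both KO libraries were higher, with a log2 difference of 0.30 (SE 0.12, limma adjusted p = 1.00). Of all tested Kcn genes it had the smallest unadjusted limma p, 0.061, but this rank moved with the scaling. Under median-of-ratios scaling the unadjusted limma p was 0.093, against 0.059 for Kcnq3. With quantile normalization it was 0.14, against 0.042 for Kcnq3. The exons of Kcna6 share 2355 bases with the antisense gene Gm26673, which the table does not list as a row. Kcna6 supplied 71.2% of the summed level of the 8 Kcna genes. Kcnh2, the channel of the cardiac rapid delayed rectifier current, was at 9.36 and 11.5 TPM in WT against 7.36 and 9.61 TPM in KO. These values overlapped, although each KO library was below the WT library of the same number, by 0.31 and 0.24 on the log2 scale.

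Of the voltage-gated genes with lower levels, Kcnq3 (ENSMUSG00000056258.9, chromosome 15, 65986387 to 66286642), a subunit of the M current that restrains neuronal firing, measured 4.13 TPM in WT 1 and 5.39 in WT 2, against 2.81 in KO 1 and 3.51 in KO 2. Both KO libraries were lower, with a log2 difference of -0.47 (SE 0.21), and of -0.31 without WT 2. This was the lowest value of the 37 genes on the log2(TPM + 1) scale, but Kcnma1 was lower with a pseudocount of 0.1 TPM (-0.61 against -0.57) and Kcne3 with one of 5 TPM (-0.31 against -0.26). Kcnc2 was the highest of the fast Kv3 genes at 2.18 ± 0.326 TPM in WT against 2.10 ± 0.243 TPM in KO, and Kcnd1 the only Kv4 gene above the filter at 0.988 ± 0.343 and 1.31 ± 0.509 TPM (SD, n = 2 each).

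Among pore subunits opened by calcium, Kcnn1 was the highest. It encodes a small-conductance channel and measured 7.94 TPM in WT 1 and 6.86 in WT 2, against 5.002 in KO 1 and 8.48 in KO 2, with KO on both sides of WT. Kcnn4, of intermediate conductance, was named after its values were seen and had a mean of 2.16 TPM in WT against 2.08 TPM in KO; its log2 difference of 0.02 changed sign under median-of-ratios scaling and quantile normalization. Kcnma1 (ENSMUSG00000063142.15, chromosome 14, 23289431 to 24014491), the BK pore itself, was much scarcer than its accessory genes Kcnmb4 and Kcnmb2. It measured 2.53 TPM in WT 1 and 1.91 in WT 2, against 1.29 in KO 1 and 1.54 in KO 2. Both KO libraries were lower, with a log2 difference of -0.41 (SE 0.23; limma unadjusted p = 0.14), which was -0.27 without WT 1. Its exons share 1016 bases with 4930519K11Rik on the opposite strand.

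The inward rectifiers were spread over several genes of similar level. By the mean of the 4 libraries Kcnj2 was the highest, at 20.5% of their sum, nearly level with Kcnj12, which was the higher of these genes in WT at 2.85 TPM against 2.71 TPM. Kcnj2, a classical strong rectifier, was at 2.71 ± 0.163 TPM in WT against 3.42 ± 0.444 TPM in KO, and Kcnj11, the pore of ATP-sensitive channels, at 2.12 ± 0.438 and 3.05 ± 0.829 TPM (SD, n = 2 each). For both genes the KO libraries were above the WT libraries, with log2 differences of 0.25 (SE 0.19) and 0.37 (SE 0.25). Without KO 1 these were 0.15 and 0.16, and the Kcnj11 difference was 0.22 without WT 2 and 0.58 without KO 2. In Kcnj11 the gap was small, 2.43 TPM in WT 1 against 2.46 TPM in KO 2. Of the sulfonylurea receptors that complete ATP-sensitive channels, Abcc9 was at 1.74 TPM in WT against 1.82 TPM in KO, and Abcc8 was under the filter in both. Kcnj12, a strong rectifier as well, had the widest range of the tested Kcn genes, 4.33 times from lowest to highest. It measured 2.12 TPM in WT 1 and 3.58 in WT 2, against 1.22 in KO 1 and 5.28 in KO 2.

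Of the Kcnk genes, whose products carry background leak currents, Kcnk1 was the second most abundant Kcn gene and supplied 56.9% of the group's sum. Kcnk1 (ENSMUSG00000033998.9, chromosome 8, 125995170 to 126030685) measured 22.8 TPM in WT 1 and 20.5 in WT 2, against 19.5 in KO 1 and 22.2 in KO 2, so the genotypes overlapped. Kcnk5, an alkali-sensitive leak channel, was at 6.92 and 7.67 TPM in WT against 7.70 and 8.98 TPM in KO. The KO libraries were higher, but WT 2 and KO 1 were nearly level, and the log2 difference was 0.17 (SE 0.14). It was 0.069 without KO 2, 0.10 without WT 1 and 0.27 without KO 1. Kcnk2, a mechanically gated leak channel, was at 3.50 ± 0.0129 TPM in WT against 3.69 ± 0.132 TPM in KO (SD, n = 2 each). Of the 6 tested Kcnk genes 5 were higher in KO, against 61.6% of all genes tested, and 4 of them had both KO libraries above both WT libraries, against 19.2% of all genes. Their median log2 difference was 0.12, against 0.03 over all genes, and none passed the test. Under median-of-ratios scaling Kcnk2 and Kcnk5 overlapped between genotypes, with log2 differences of 0.033 and 0.14. The share of all genes above WT was then 13.6%.

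**Figure D2:**
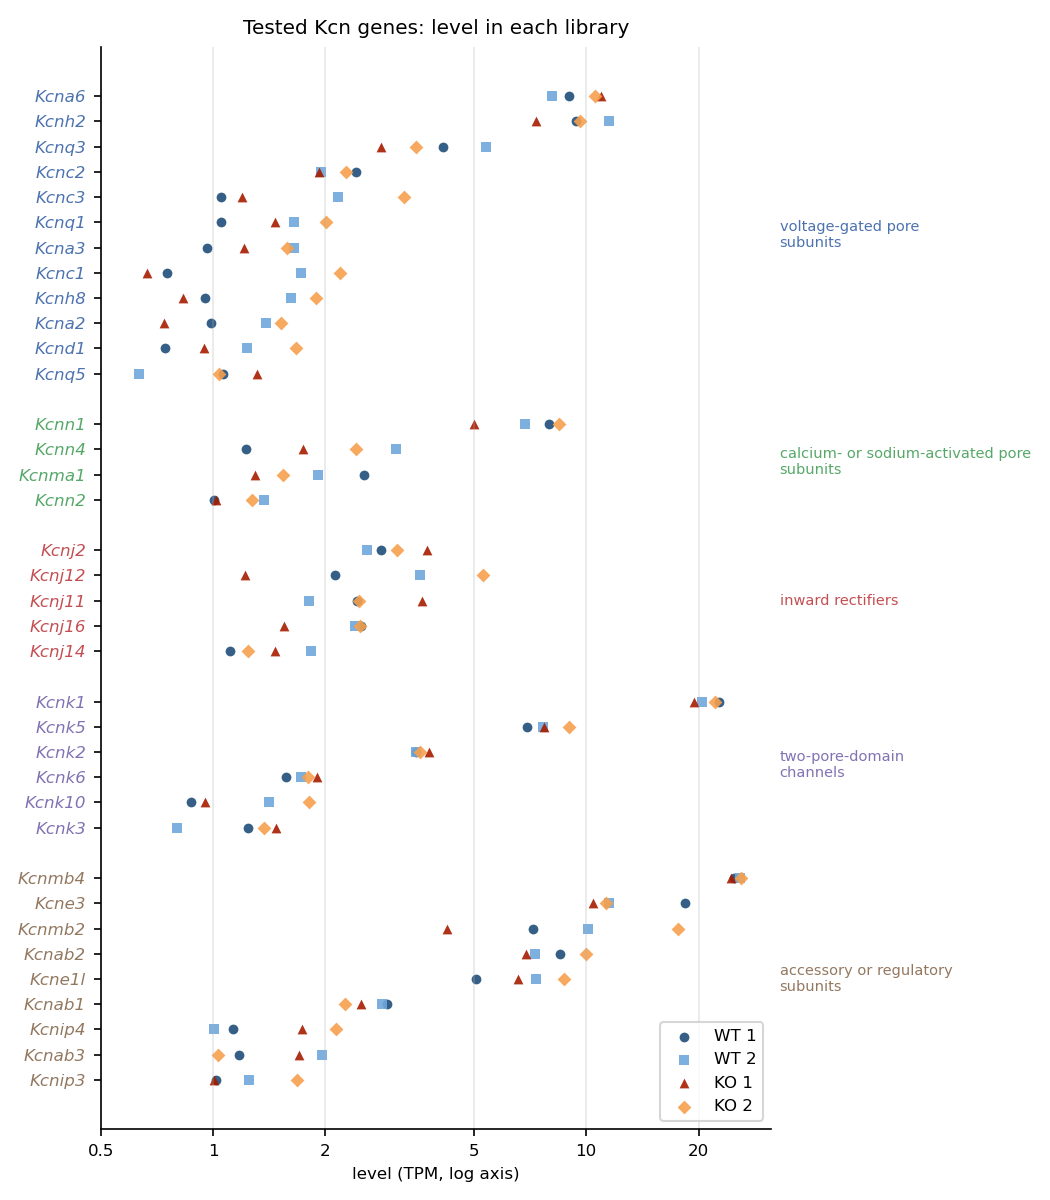
Level of 36 of the 37 tested Kcn genes in TPM on a log axis, with 1 symbol per library, grouped by role and ordered by mean within a role. Kcnmb4 and Kcnk1 stand between 19.5 and 26.0 TPM with their 4 symbols close together, while the symbols of Kcnmb2, Kcnj12 and Kcnc1 spread widely.

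The 57 genes under the filter included all 10 silent subunits and several genes known from the mature ear. Kcnk16 was listed at 0 in all 4 libraries. Of the members known for potassium transport or hearing, Kcnj16 was at 2.49 and 2.40 TPM in WT against 1.55 and 2.47 TPM in KO, with KO 1 alone lower. Its partner Kcnj10 reached no more than 0.186 TPM in any library. Kcnq1 was at 1.35 ± 0.420 TPM in WT against 1.74 ± 0.388 TPM in KO, while its partner Kcne1 was at 0.879 ± 0.459 and 0.519 ± 0.101 TPM (SD, n = 2 each). Kcnn2, which carries the efferent inhibition of hair cells, was at 1.19 ± 0.258 TPM in WT against 1.15 ± 0.182 TPM in KO (SD, n = 2 each). Kcnj10 lay above WT in both KO libraries, at levels under the filter. Kcnj13 was at 0.693 TPM in WT 1 and 0.613 in KO 1, but 0.0512 in WT 2 and 0.137 in KO 2, so its libraries numbered 1 were the higher ones in both genotypes. Its exons share 623 bases with Gigyf2 on the opposite strand. The genes nearest to the filter were Kcnq5, with a mean of 1.01 TPM, and Kcna5, with a mean of 0.976 TPM.

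The comparison of KO with WT asks which genes depend on Meis2, and no Kcn gene passed its test. With limma on log2(TPM + 1), 0 of 37 Kcn genes had an adjusted p under 0.05, where 0.0% of all 14496 tested genes did, and the adjusted p of each tested Kcn gene rounded to 1.00. Before adjustment, 0 Kcn genes were under 0.05, against 3.5% of all genes. This count moved with the setting. With quantile normalization it was 1 (Kcnq3), against 459 of all 14496 genes. Without the variance trend it was 3 (Kcna6, Kcnip4 and Kcnma1), against 545 of all genes. On the log2(TPM + 1) scale without quantile normalization, differences ran from -0.47 for Kcnq3 to 0.50 for Kcnip4. With 2 libraries per genotype, the exact permutation test of a single gene cannot give a two-sided p below 0.333.

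The median log2 difference of the 37 genes was 0.06, against 0.03 over all genes tested, and 22 of them were higher in KO, against 61.6% of all genes, and 15 lower. KO and WT did not overlap for 12 Kcn genes, or 12 of 37, where the share over all genes was 29.8%. Both KO libraries were higher for Kcna6, Kcnip4, Kcnj11, Kcnj2, Kcnk2, Kcnk3, Kcnk5 and Kcnk6, and both were lower for Kcnq3, Kcnma1, Kcne3 and Kcnab1. These are 8 genes above WT, against 19.2% of all genes, and 4 below, against 10.5%. The split moved with the scaling, as it did over all genes: with median-of-ratios scaling it was 5 above and 6 below, against 13.6% and 14.8% of all genes. With quantile normalization it was 3 above and 6 below, against 12.8% and 15.3% of all genes. The median absolute log2 difference of the Kcn genes was 0.14 between the genotype means, 0.28 between the WT libraries and 0.24 between the KO libraries. Over all genes tested these medians were 0.09, 0.14 and 0.15. A difference between means of 2 libraries is smaller by construction than one between single libraries, so the first value is not to be ranked against the others.

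**Figure D3:**
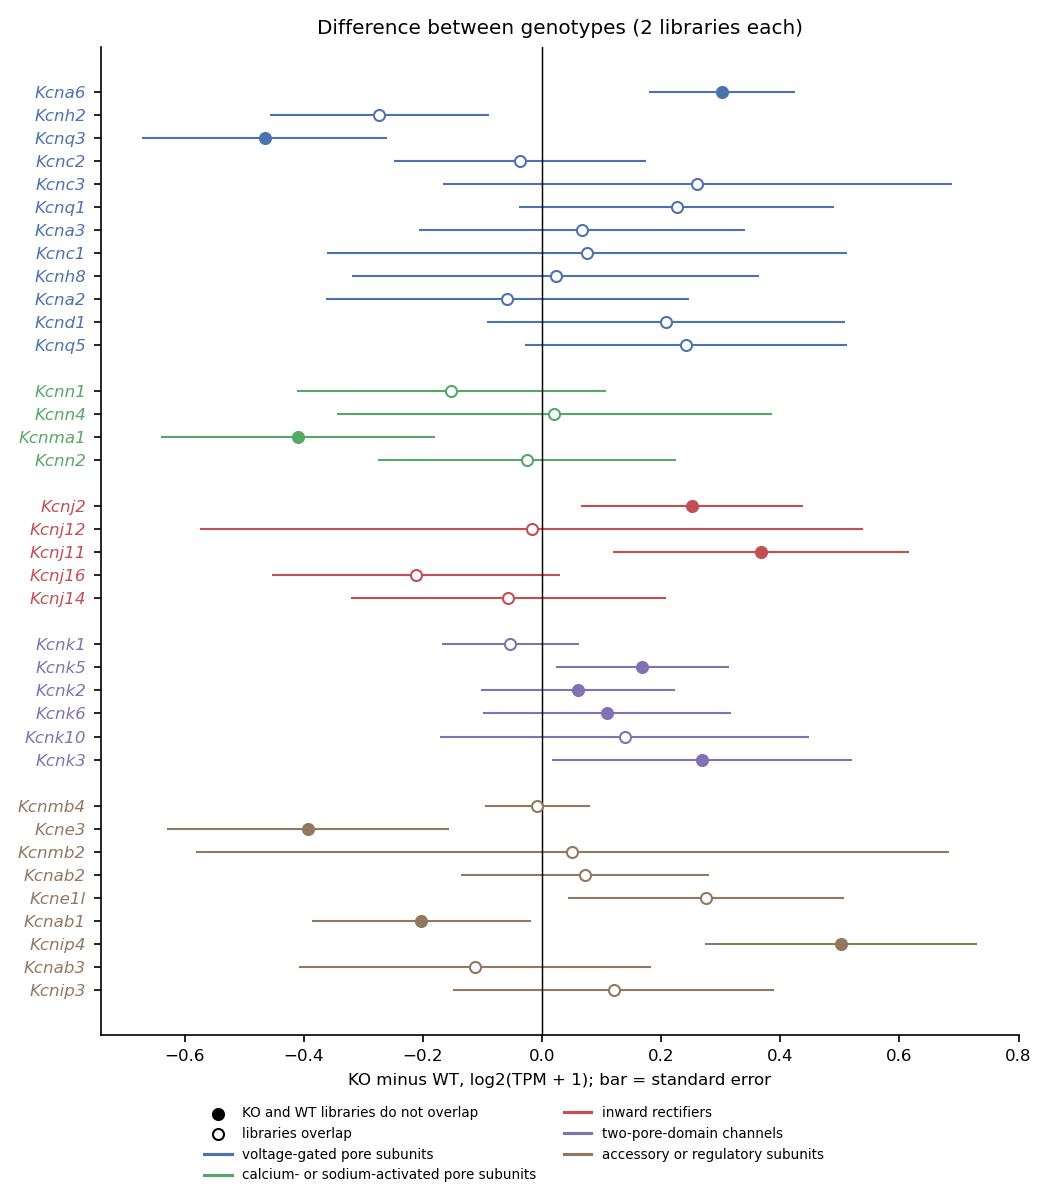
Log2 difference of KO minus WT on the log2(TPM + 1) scale for 36 of the 37 tested Kcn genes, with the standard error as a bar, filled where the 2 libraries of KO do not overlap those of WT. The points lie between -0.47 and 0.50, and 12 are filled.

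Under the filter, 56 Kcn genes had any value above 0. Both KO libraries were higher for 16 of them and both lower for 3, where over all coding genes with a mean under 1 TPM the shares were 14.2% and 11.2%. Their differences were small in TPM, and none passed the fit without a filter, in which the smallest adjusted p of a Kcn gene rounded to 1.00. In that fit an unadjusted limma p under 0.05 was found for 2 of 93 Kcn genes, against 951 of all 24346 genes. The 2 Kcn genes were Kcns3, at 0.462 and 0.382 TPM in WT against 0.154 and 0.119 TPM in KO, and Kcnip2.

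For 17 of the 37 Kcn genes the KO minus WT difference had opposite signs between the libraries numbered 1 and those numbered 2, a share near the 44.1% of all genes. Kcnmb2 was the widest case, at -0.64 for KO 1 minus WT 1 and 0.74 for KO 2 minus WT 2. Kcnj12 was at -0.49 and 0.45, and Kcnn1 at -0.58 and 0.27. Kcnab3, named after its values were seen, went the other way, at 0.32 and -0.54. Kcnq3 and Kcna6 differed little between the numbers, at -0.43 and -0.50, and at 0.26 and 0.35. Without KO 1 the Kcnmb2 difference was 0.97 and without KO 2 it was -0.86.

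**Figure D4:**
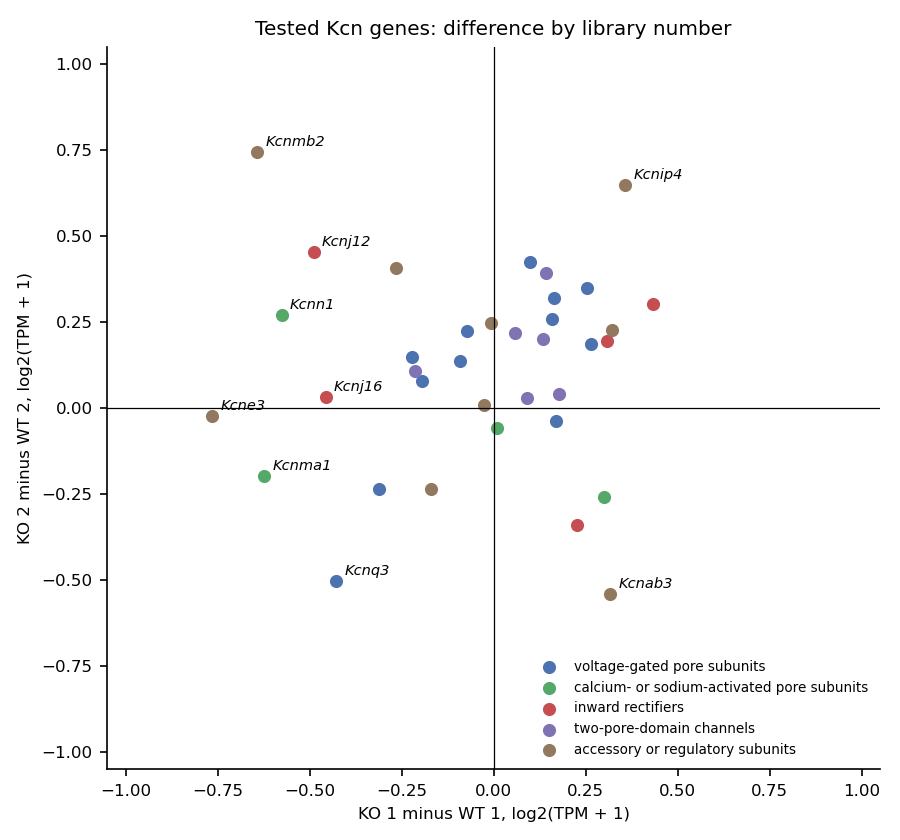
Difference between KO 1 and WT 1 on the horizontal axis against that between KO 2 and WT 2 on the vertical axis, on the log2(TPM + 1) scale, with 1 point for each of 36 of the 37 tested Kcn genes, coloured by role. Kcnmb2, Kcnj12 and Kcnn1 lie at the upper left, where the sign differs between the numbers, Kcnip4 at the upper right and Kcnq3 at the lower left.

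A set of Kcn genes followed the order of the neuronal markers. The 12 neuronal marker genes summed to 407 TPM in KO 1, 500 TPM in WT 1, 768 TPM in WT 2 and 1100 TPM in KO 2, none was listed at 0, and 11 of 12 had levels in just that order of libraries. Of the 37 tested Kcn genes 7 had this order (Kcnmb2, Kcnj12, Kcnc1, Kcnh8, Kcnip3, Kcna2 and Kcnmb4), against 7.2% of all genes. These genes, some of them outside the naming rule, were singled out after their values were seen. Kcnc1, a fast channel of rapidly firing neurons, was at 0.667 TPM in KO 1, 0.754 in WT 1, 1.73 in WT 2 and 2.19 in KO 2. In Kcnmb4 the same order spanned a very small range, and it was lost under median-of-ratios scaling. Whether neurons account for these values was not tested.

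More broadly, library 2 exceeded library 1 in both genotypes for 19 of 37 Kcn genes, against 34.8% of all genes, and lay below it in both for 6, against 29.7%. Among the 13 tested voltage-gated pore genes the count was 10 above and 2 below, the latter Kcna6 and Kcnq5. Among the 5 tested inward rectifiers it was 1 above, Kcnj12, and 2 below, Kcnj2 and Kcnj11. The mesenchyme markers were lower in library 2 in both genotypes for 9 of 9.

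**Figure D5:**
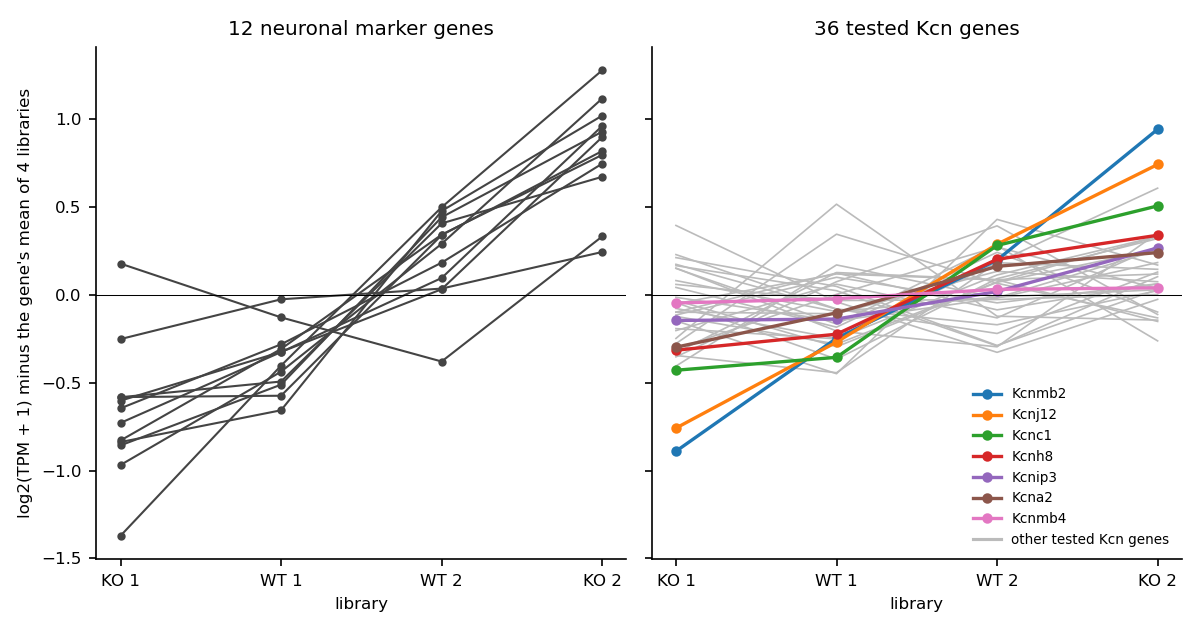
Log2(TPM + 1) of each gene minus its mean of the 4 libraries, for the 12 neuronal markers on the left and 36 of the 37 tested Kcn genes on the right, with libraries in the order KO 1, WT 1, WT 2, KO 2. The 7 coloured Kcn genes increase through this order, Kcnmb2 and Kcnj12 most, and the other Kcn genes are grey.

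Promoter windows were searched for TGACAG, the core sequence bound by Meis proteins, because the libraries are labelled as differing in Meis2. In RefSeq windows of GRCm38.p6 covering the 250 bases before a transcript start, on both strands, 69 of the 94 Kcn genes had a window. The hexamer stood in 9 of the 46 windows of tested Kcn genes (19.6%), against 15.9% of all 32851 windows. A gene can have several windows. By gene, the hexamer stood in 7 of the 26 tested Kcn genes with a window, against 4851 of all 27025 genes. Of the 12 genes without overlap, 8 had a window and 2 held the hexamer, Kcnip4 and Kcnab1. Their matches are shown with that of Kcnh2, the most abundant voltage-gated gene that had one, and that of Kcnmb2, the most variable accessory gene. Each is written along the gene's own strand with the hexamer or its reverse complement CTGTCA in capitals.
Kcnip4, chr5:49285755-49285784, minus strand: agccccagtgacCTGTCAtctgtctgctca
Kcnab1, chr3:64949022-64949051, plus strand: tattccaagaagTGACAGgtagcggccgca
Kcnab1, chr3:65187979-65188008, plus strand: aatcaaatctgtCTGTCAgaatgggtctgg
Kcnh2, chr5:24329773-24329802, minus strand: attaatctgcggTGACAGgccaggctgccg
Kcnmb2, chr3:31902597-31902626, plus strand: gaagcagcgtgcCTGTCAtaggctaataaa
The first Kcnab1 match lies before that gene's annotated span (65109384 to 65378223), and the other matches shown lie inside the spans of their genes. Which transcript starts were used in these libraries was not tested. A match is a description of the letters, and the data hold no measure of binding. Kcnip4 was higher in both KO libraries and Kcnab1 lower in both, while Kcnh2 and Kcnmb2 overlapped between genotypes, so genes with the hexamer lay on both sides. Kcna6 had a window without it.

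Other potassium transport genes were taken from a list of 27, which held partners of Kcn channels, Hcn channels, sodium pumps, potassium-chloride cotransporters and intracellular channels. Of its 20 tested members 0 passed the test, 14 were higher in KO, against 61.6% of all genes, and 6 lower. In 3 of the 20 the genotypes did not overlap, a smaller share than the 29.8% of all genes. The cotransporter gene Slc12a7 had the largest difference of the list, at 46.2 ± 6.27 TPM in WT against 63.9 ± 16.9 TPM in KO (SD, n = 2 each). Its log2 difference was 0.44 (SE 0.21). Dpp6 and Dpp10, partners of Kv4 channels, overlapped between genotypes at 2.48 and 1.93 TPM in WT against 2.68 and 1.69 TPM in KO. The BK partner genes Lrrc26 and Lrrc52 were listed at 0 in all 4 libraries.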

How the data were processed

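RNA-seq was done on otic vesicles of 2 WT and 2 KO libraries, grouped by their titles. The authors deposited gene-level TPM. Salmon 0.9.1 and the build GRCm38 come from the submitters' processing notes, and the authors' annotation is not stated there. Gene IDs were matched by number to GENCODE M21 of that build (34582 of 34866 named; the version was the same for 85 of 94 Kcn genes). Genotype was the single term of a fit with limma 3.58.1 (R 4.3.3) to log2(TPM + 1), with a variance trend and Benjamini-Hochberg adjustment over all 14496 genes that averaged 1 TPM or more; fold changes on this scale understate those of low genes. The fit was tested on simulated data. Named genes were the 15 highest tested members, the highest of each subfamily, the 6 per direction with the smallest p, and genes known from the inner ear, some of which are not reported here; others were picked once values were known. The members, roles and lists were chosen with earlier results of these data known. Alternatives were other pseudocounts, filters, scalings and variance settings, coding genes only, a replicate block, and leaving out each library. The setting of coding genes only also left out mitochondrially encoded genes and alpha- and beta-globin genes. Each library was then rescaled to the same total. Erythroid, macrophage, melanoblast and skeletal muscle markers were not used here. Protein sequences were not used here.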

Additional observations from a re-analysis of the deposited data

How the results depend on the processing

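No Kcn gene passed an adjusted p of 0.05 under any of the 13 alternatives, and the lowest adjusted p of a named Kcn gene over them was 0.60. Over all genes the count was 0 with all 4 libraries under each setting, and 0 to 10 when a library was left out: 2 without KO 1 and 10 without KO 2, none of them Kcn genes. The Kcn genes without overlap were 31 of 93 with no filter and 3 of 10 with a mean of at least 5 TPM, shares of 33.3% and 30.0% against 27.1% and 29.8% of all genes, so the numbers moved with the genes tested. They were 18 to 29 when a library was left out, where the share over all genes was also higher, at 62.7% to 67.3%, since 1 value is then set against 2. The median log2 difference of the Kcn genes was -0.11 without KO 2 and -0.05 without WT 1, and up to 0.18 without KO 1. Of 285 values of the 23 named and tested genes under the alternatives, 268 kept their direction, and 14 genes kept it throughout. The other filters, the variance setting and the replicate block cannot change a gene's difference, so part of this count was fixed in advance. Of the 17 reversals, 16 came on leaving out a library. With a pseudocount of 5 TPM Kcnj12 was at 0.033. Leaving out each library gave ranges on both sides of 0 for Kcnab2 (-0.17 to 0.31), Kcnc2 (-0.14 to 0.067), Kcnj12 (-0.77 to 0.73), Kcnj16 (-0.44 to 0.012), Kcnk1 (-0.14 to 0.036), Kcnmb2 (-0.86 to 0.97), Kcnmb4 (-0.051 to 0.035), Kcnn1 (-0.48 to 0.18) and Kcnn2 (-0.15 to 0.10). The cause was not tested. In these fits the lone library is assumed to vary like the others.

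With the replicate number as a block, 0 genes and 0 Kcn genes passed. An unadjusted limma p under 0.05 was then found for 1178 genes in place of 507, among them Kcna6 and Kcnq3. The block cannot change a gene's difference in this layout, so the Kcn median of 0.06 was fixed in advance. Differences between numbers 2 and 1 in WT and in KO correlated with r = 0.42 over 14496 genes, which are not independent, and the labels do not say that a number marks a shared batch. TPM keeps no depth, so what depth limits is unknown.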
